A study of Mus musculus with 2 samples.

Results

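Class II-high cells were taken from 2 single-cell libraries of the mouse colon lamina propria as cells that carried monocyte transcripts together with much MHC class II RNA. A cell was kept when Ly6c2, F10, Chil3, F13a1 and Plac8 together gave at least 3 UMIs (unique molecular identifiers, each counting 1 captured RNA molecule) and Lyz2 gave at least 3. It also had no UMI of the T cell, B cell, plasmacytoid and cDC1 genes Cd3e, Cd3d, Cd79a, Siglech and Xcr1, with S100a8 and S100a9 below 1% of its UMIs and C1qa, C1qb and C1qc below 0.2%. The macrophage genes Ccl24, Retnla, Lpl and Pf4 and the dendritic cell genes Cd209a, Mgl2 and Clec10a each summed to below 5 UMIs. Finally, Cd74, H2-Aa and H2-Ab1 made up at least 1% of its UMIs. The rule found 214 of 2597 filtered cells in the WT library and 92 of 2514 in the KO library, 306 of 5111 in all. Cells that met every condition but had less than 1% class II RNA, called class II-low cells, numbered 121 in WT and 259 in KO.

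The WT library came from wild-type mice and the KO library from mice without a long non-coding RNA, LncRNA17Rik in the labels and lncLy6c in the study. The deletion was made with CRISPR-Cas9 around both exons, so it was present in all cells of the animal and not only in monocytes. The mice were males of 8 weeks, the study giving C57BL/6 for wild-type and C57BL/6J for the deficient mice, the colon cells were pooled from 6 mice (whether in all or per genotype is not given in the sources used here), and the labels describe the sorted cells as cd11b+. The deleted RNA was not matched to a feature here, so the deletion was not checked in these cells. With 1 library per genotype no test between genotypes was possible. Genotype, pool, sort and library cannot be told apart. Where a pair of values is given for the libraries, WT comes first and KO second, and a value that precedes an interval in parentheses is the log2 ratio of KO over WT. All intervals below are 95% intervals of the counting error within these 2 libraries. The libraries held 22191774 and 23384895 UMIs in 3185 and 3020 barcodes. They shared 1 barcode, which was in no class II-high cell.

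Blood monocytes that carry Ly6C and CCR2 enter the gut wall continuously. There they lose Ly6C, gain MHC class II and then acquire the genes of resident macrophages, a sequence often called the monocyte waterfall. MHC class II molecules present peptides to CD4 T cells. H2-Aa and H2-Ab1 encode the chains of I-A, H2-Eb1 the beta chain of I-E, Cd74 the invariant chain that guards the groove, H2-DMa, H2-DMb1 and H2-DMb2 the peptide exchanger H2-M, and H2-Oa and H2-Ob its inhibitor H2-O. Ciita, the class II transactivator, works through factors bound to the X and Y boxes of class II promoters, the Y box being the site of NF-Y.

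The promoters show a feature that these genes share. The 7 letters TGATTGG, which include the Y box core, were sought on both strands of the RefSeq promoter windows of build GRCm38.p6 (300 bases each, 250 of them before the gene start). Of 10 class II genes looked for, 7 had a window. The letters were found in 6 of the 7, H2-DMa being the exception in both of its windows. Of all 32851 windows, 7.82% held them. The 30 bases that end with the match are given for each of the 6 genes, 5′ to 3′ on the strand of the gene, with the match in capitals. All lie on chromosome 17, in the MHC. A match describes the letters only and is no evidence of binding.

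H2-Aa: gacgtcatcacaagagaattttcTGATTGG
H2-Eb1: atgatgctggactcctttgatgcTGATTGG
H2-DMb1: tgatgctaggctgattcactcagTGATTGG
H2-DMb2: tgatgctaggctaagtcacttagTGATTGG
H2-Oa: cccattatctcagagaactgctcTGATTGG
H2-Ob: aaatgatgcaaagtcttcgctctTGATTGG

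The H2-Aa stretch is chr17:34287867-34287896 on the minus strand, and its match begins 50 bases before the gene start. The H2-Eb1 stretch is chr17:34305783-34305812 on the plus strand, 61 bases before the start. The stretches of H2-DMb1 (chr17:34153105-34153134), H2-DMb2 (chr17:34145134-34145163), H2-Oa (chr17:34092311-34092340) and H2-Ob (chr17:34238823-34238852) are also on the plus strand, with matches 63, 92, 45 and 59 bases before the starts. All distances are to the RefSeq start of the window. The GENCODE annotation places the gene starts of H2-DMb1 (34153072) and H2-DMb2 (34143307) upstream of their matches and that of H2-Oa (34092340) at the last base of its match.

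The cells had been proposed as monocytes. The levels of the monocyte genes that chose them are a description and no check of that name, which rests on markers outside the rule. Plac8, a gene of monocytes that other leukocytes also use, gave 66.4% of the monocyte UMIs by which the WT cells were chosen and 74.6% in KO. Ly6c2, the gene of the classical monocyte antigen, stood at 955 (907 to 1003) CPM, counts per 1e+06 UMIs, in WT class II-high cells and at 159 (138 to 182) in those of KO. Without Plac8, 150 of the 214 WT cells (70.1%, 63.5 to 76.1) still had 3 UMIs of the other 4 genes, against 43 of 92 KO cells (46.7%, 36.3 to 57.4). Ccr2, the chemokine receptor by which monocytes leave the marrow and a marker the rule did not use, was found in 187 WT and 70 KO cells. Its level was 791 (748 to 835) CPM in the WT cells, against 335 (304 to 368) in the KO cells. In class II-low cells Ccr2 was at 1044 and 534 CPM. Neighbouring cells described further below also held it, so Ccr2 does not set the group apart. It was lower in KO in each of these groups.

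Part of the cells carried genes of conventional dendritic cells. The cDC2 markers Flt3, Zbtb46, Dpp4, Plet1, Kit and Cd209a, the last also limited by the rule, gave at least 3 UMIs in 37 of 214 WT cells (17.3%, 12.5 to 23) and 41 of 92 KO cells (44.6%, 34.2 to 55.3). All 6 were detected in both libraries, with 289.7 CPM in sum in WT against 357 in KO, against 69.8 and 51.3 CPM in class II-low cells. KO cells were sampled more deeply, with a median of 12000 UMIs per cell against 7144, and a fixed count of UMIs is reached more often in deep cells. When each cell was thinned to 2000 UMIs, 47 of 208 WT cells (22.6%, 17.1 to 28.9) and 27 of 91 KO cells (29.7%, 20.5 to 40.2) had a cDC2 marker, and these intervals overlapped. Among class II-low cells the thinned shares were 9.17% in WT and 9.20% in KO. Ly6c2 was found at equal depth in 54.8% of WT cells (47.8 to 61.7) and 15.4% of KO cells (8.67 to 24.5), and in 72.5% and 62.0% of class II-low cells. Ccr2 was found in 72.6% (66.0 to 78.5) and 35.2% (25.4 to 45.9), and in 83.5% and 48.0% of class II-low cells. Free RNA can also give UMIs, so the same shares were taken in lymphocytes, defined by 3 UMIs of Cd79a (B lineage) or of Cd3e and Cd3d (T cells) and under 3 of Lyz2. In B-lineage cells, with median depths of 9558 and 4452.5 UMIs, Ccr2 was found in 1.37% of WT and 1.18% of KO cells, Ly6c2 in 23.3% and 3.53%, and cDC2 markers in 12.3% (8.79 to 16.7) and 9.41% (4.15 to 17.7). In T cells, with medians of 5513 and 6223.5 UMIs, Ccr2 was found in 11.7% and 9.68%, Ly6c2 in 8.38% and 11.3% (4.66 to 21.9), and cDC2 markers in 6.70% (3.51 to 11.4) and 22.6% (12.9 to 35). The cDC2 interval of KO class II-high cells overlapped that of KO T cells and not that of KO B-lineage cells, and in WT it overlapped neither. T cells can express Dpp4, one of the 6 markers, themselves. Whether the Ly6c2 and Ccr2 UMIs of lymphocytes were free RNA or their own was not tested. The group is called class II-high cells here, after its rule. Values are given for all of its cells and, where it matters, for the 177 WT and 51 KO cells with under 3 UMIs of the cDC2 markers, a division made after the values were seen. This division also leaves out deep cells: those with the markers had medians of 10997 and 19054 UMIs, against 6645 and 10091. Of them, 24 of 37 in WT and 34 of 41 in KO had under 3 UMIs of the monocyte genes other than Plac8. Leaving out these cells and leaving Plac8 out of the rule therefore removed overlapping cells.

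**Figure D1:**
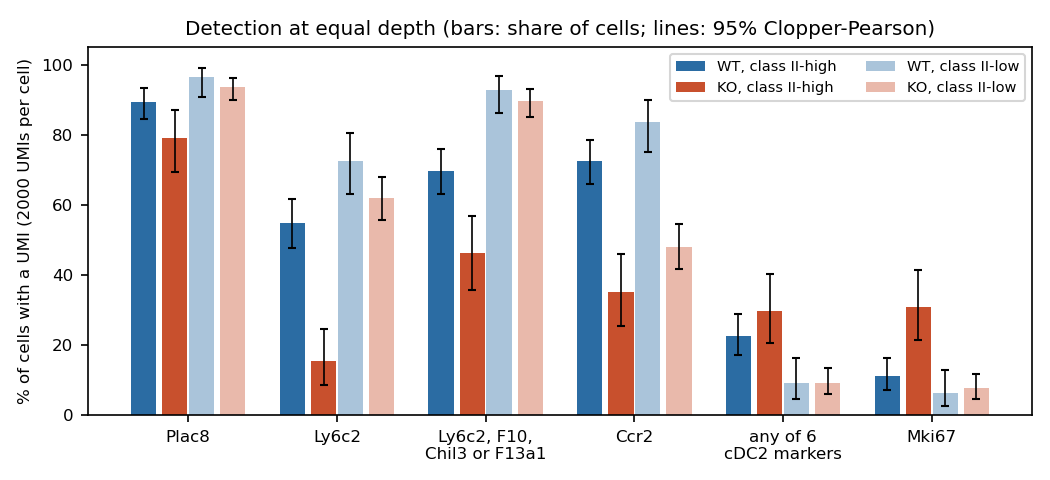
Share of cells with at least 1 UMI of each gene or gene group after thinning every cell to 2000 UMIs, in percent, for class II-high and class II-low cells of each library; lines are 95% Clopper-Pearson intervals. Ly6c2 and Ccr2 were found in fewer KO than WT class II-high cells, the intervals for cDC2 markers overlapped between genotypes, and Mki67 was found most often in KO class II-high cells.

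Cells with and without those markers differed in both libraries. In WT cells with at least 3 cDC2 UMIs, Ccr2 stood at 303 CPM, against 975 CPM in the others. In KO it stood at 173 CPM against 576 CPM. Ccr7, the receptor that guides dendritic cells to lymph nodes and not one of the markers used, was at 847 CPM against 113 CPM in WT, and at 576 against 183 CPM in KO. Itgae, which encodes CD103, was at 219 against 4.26 CPM in WT and at 84.6 CPM against 0 UMIs in KO. Class II RNA was high on both sides, with Cd74 at 15279 CPM in the WT cells with the markers and 13180.4 CPM in the others.

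Markers of other dendritic cells were also present and, summed over each list, higher in KO. The 6 cDC1 markers, Itgae among them, summed to 353 and 619 CPM, against 177 and 175 CPM in class II-low cells. Clec9a, which defines cDC1, had 5 and 30 UMIs, whereas Itgae itself was at 63.1 and 50.6 CPM. The 4 markers of mature dendritic cells, with Ccr7, summed to 347 and 542 CPM, against 95 and 37.1 CPM in class II-low cells. The part of these cells in the results was not tested. No UMI of Mcpt8, Fcer1a, Cpa3 or Ms4a2 was found, and the 6 T and NK cell genes summed to 20.4 and 25.3 CPM. The 6 neutrophil genes gave 159 and 54.4 CPM and the 6 B cell genes 109.6 and 63.6 CPM, with Ighd at 0 in both. Plasma cell RNA moved with genotype: its 6 markers summed to 1358 CPM in WT, where 213 of 214 cells held an immunoglobulin UMI, and to 29.1 CPM in KO, with Mzb1, Iglc1 and Iglc2 at 0. In class II-low cells the sums were 10900.5 and 27.9 CPM, and 85.5% of the WT immunoglobulin UMIs there lay in 5 cells. The part of this RNA in the results was not tested.

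The class II-high share of the libraries differed. It was 8.24% of WT cells (7.21 to 9.36) and 3.66% of KO cells (2.96 to 4.47), a log2 ratio of -1.17 (-1.54 to -0.81). Class II-low cells went the other way, with 4.66% of WT (3.88 to 5.54) and 10.3% of KO cells (9.14 to 11.6). Before the class II condition the candidates were alike in number, 335 in WT and 351 in KO. In KO, 162 of them (46.2%) had less than 0.1% class II RNA, against 43 (12.8%) in WT, whereas WT candidates spread over the whole range. Few cells lay near the limit: 9 WT and 8 KO cells had 0.8 to 1%, and 15 WT and 10 KO cells had 1 to 1.3%. Just outside the limit H2-Eb1 was at 1235 and 520.0 CPM, and just inside at 1064 and 787 CPM. Without Plac8 the shares were 5.78% in WT and 1.71% in KO.

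**Figure D2:**
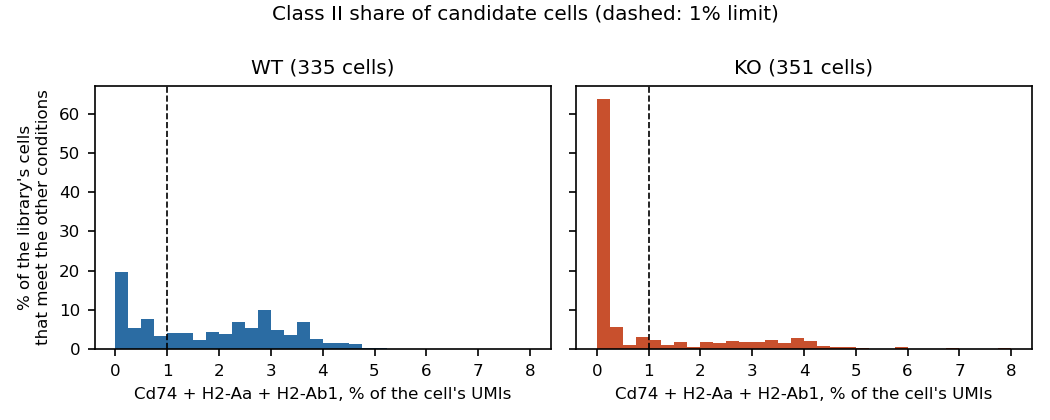
Histogram of the share of Cd74, H2-Aa and H2-Ab1 in each cell's UMIs, in percent, for the 335 WT and 351 KO cells that met all other conditions; bar heights are percent of those cells and the dashed line is the 1% limit. WT cells spread from 0 to about the maximum of 5.03%, whereas most KO cells lay close to 0 with the others reaching 7.83%.

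The class II machinery was then compared within the class II-high cells. The rule required class II RNA in every cell of both libraries and so bears on these levels, which are a description; in class II-low cells H2-Eb1 was at 281 and 72.1 CPM. H2-Eb1, which the rule did not use, was at 4359 and 5467 CPM (log2 ratio 0.33, 0.28 to 0.37). H2-DMa was at 589.9 and 603 CPM (0.03, -0.11 to 0.17) and H2-DMb1 at 587 and 515 CPM (-0.19, -0.33 to -0.04). Ciita was at 85.4 and 74.4 CPM (-0.20, -0.59 to 0.19). The 7 genes H2-Eb1, H2-DMa, H2-DMb1, H2-DMb2, H2-Oa, H2-Ob and Ciita summed to 5755 and 6896 CPM (0.26, 0.22 to 0.30). H2-Ob was at 23.5 and 64.4 CPM (1.45, 0.88 to 2.05), and at 5.12 and 19.1 CPM in cells with under 3 cDC2 UMIs. H2-Oa and H2-DMb2 were found mostly in cells with cDC2 markers. H2-Oa was at 50.1 and 62.9 CPM over all cells, but at 6.82 and 7.63 CPM in cells with under 3 cDC2 UMIs. H2-DMb2 was at 60.7 and 109.6 CPM (0.85, 0.47 to 1.24) over all cells, and at 22.2 and 13.3 CPM in cells with under 3 cDC2 UMIs.

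The enzymes that cut the invariant chain and antigens were lower in KO. Ctss, cathepsin S, which trims the invariant chain in myeloid cells, was at 2229.8 and 945 CPM (-1.24, -1.33 to -1.15). Lgmn, legumain, an endopeptidase of the same compartment, was at 873 and 219 CPM (-2.0, -2.19 to -1.81). Both were lower in KO also in cells with under 3 cDC2 UMIs, at 2636 against 1588 CPM for Ctss and 1074 against 444 CPM for Lgmn. The lower Lgmn level was not particular to class II-high cells, as class II-low cells had 845 and 238 CPM. Cst3, cystatin C, an inhibitor of cathepsins that dendritic cells express strongly, was at 1854 and 6338 CPM (1.77, 1.71 to 1.83). In the cells with under 3 cDC2 UMIs it stood at 1461 and 1569 CPM (0.10, -0.02 to 0.22). Of the 12 tested genes in the class II pathway list, 1 was at least 2-fold higher and 2 were at least 2-fold lower in KO, with a median log2 ratio of -0.08. Over all 5490 genes with at least 50 UMIs, 3.44% were 2-fold higher and 7.12% 2-fold lower in KO, and the median was -0.14. The 2 lower list genes were Ctss and Lgmn, and the higher one was H2-Ob.

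The classical monocyte list was lower in KO. Of its 14 tested genes 6 were at least 2-fold lower and none higher, with a median of -0.87, beside the 7.12% of all genes. Ly6a, which encodes the surface antigen Sca-1, was at 347 and 19.2 CPM (-4.18, -4.82 to -3.60). It was found in 110 of 214 WT and 13 of 92 KO cells, and also in class II-low cells it was at 193 and 11.9 CPM. Hp, haptoglobin, was at 116 and 19.2 CPM, and Ccr2 had a log2 ratio of -1.24 (-1.40 to -1.08). Cd14, a co-receptor for lipopolysaccharide and the most abundant gene of the list, was at 1165 and 672 CPM (-0.79, -0.91 to -0.68). Ifitm6 went the other way, at 119 and 193 CPM. In class II-low cells 1 of the 14 genes was 2-fold higher and 1 lower, beside 2.65% and 4.95% of all genes. The list as a whole went the other way there, with 8 of 14 intervals above 0, beside 12.7% of all genes, and a median of 0.22. Ccr2 did not follow it there and was lower in KO as in class II-high cells, at 1044 and 534 CPM. In class II-high cells with few cDC2 UMIs the difference was smaller: 3 of the 14 genes were 2-fold lower, 1 was higher and the median was -0.47, beside 1.92% of genes higher and 7.56% lower there. In those cells Cd14 was at 1487 and 1371 CPM, while Ccr2 was at 975 and 576 CPM and Ly6a at 401 and 43.9 CPM.

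Fc receptors, by which phagocytes take up antibody-coated particles, were lower in KO over all class II-high cells. All 5 genes of the list had intervals below 0, beside 27.0% of all tested genes, and 4 were at least 2-fold lower in KO, beside 7.12%, with a median of -1.65. Fcgr1, the high-affinity IgG receptor, was at 125 and 26.8 CPM (-2.22, -2.78 to -1.70), and Fcgr4 at 86.7 and 17.6 CPM (-2.30, -3.0 to -1.65). The inhibitory receptor Fcgr2b was at 307 and 97.4 CPM (-1.66, -1.95 to -1.37). The shared signalling chain Fcer1g differed less, at 1189 and 863 CPM. In cells with few cDC2 UMIs 3 of the 5 genes were 2-fold lower, beside 7.56% of all genes there, and Fcer1g was at 1440.1 and 1462 CPM. In class II-low cells 2 of the 5 were 2-fold lower, beside 4.95% of all genes, and Fcer1g had a log2 ratio of 0.59.

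Resident macrophage genes were mostly lower in KO. The rule limited C1q and macrophage gene RNA in both libraries and so bears on these levels, which are a description. Of 15 tested genes, 5 were at least 2-fold lower, beside 7.12% of all genes, 1 was higher, beside 3.44%, and the median was -0.71. With few cDC2 UMIs 1 of 14 was lower, a share near the 7.56% of all genes there, and the median was -0.46. Apoe, an apolipoprotein and the most abundant gene of the list, was at 2263 and 813 CPM (-1.48, -1.58 to -1.38). Fcgr1, which is also in this list, had the lowest ratio. Cd81 had the highest, at 15.5 and 46.8 CPM. Csf1r, the receptor for the macrophage growth factor, was at 454 and 314 CPM over all cells, but at 554 and 622 CPM in the cells with few cDC2 UMIs. In class II-low cells 3 of 14 genes of the list were 2-fold lower, beside 4.95% of all genes, and none higher, with a median of -0.43. Apoe was at 2444 and 1381 CPM there.

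Interferon-response genes were also lower in KO. Of 13 tested genes of the interferon gamma list, 8 were at least 2-fold lower, beside 7.12% of all genes, and 1 was higher, beside 3.44%, with a median of -1.43. That median was -0.79 in cells with few cDC2 UMIs, -0.66 without Plac8 and -0.63 when the rule was applied to thinned cells. Irf1, a transcription factor induced by interferons, was at 169 and 55.2 CPM (-1.61, -2.01 to -1.23). The guanylate-binding protein Gbp2, a defence GTPase, was at 209.9 and 69.8 CPM (-1.59, -1.94 to -1.25), and Gbp4 was at 31.0 and 7.67 CPM. Irf8, a factor that cDC1 and monocytes need, was the higher gene, at 194 and 389 CPM, but at 228 and 206 CPM in cells with few cDC2 UMIs. In the type I interferon list 9 of 18 tested genes were at least 2-fold lower and none higher, with a median of -1.05. Ifit3 and Ifit2, which bind viral RNA, had 63 and 52 UMIs in WT and 6 each in KO. The most abundant gene of the list, Isg15, was at 284 and 189 CPM. Its log2 ratio was 0.26 in cells with few cDC2 UMIs and 0.22 without Plac8 in the rule. Oasl1 was higher in KO, at 65.6 and 113.5 CPM. In cells with few cDC2 UMIs 6 of 13 interferon gamma genes and 6 of 16 type I genes were 2-fold lower, beside the 7.56% of the 4009 genes tested there. In the same cells 1 type I gene and no interferon gamma gene was 2-fold higher, beside 1.92%. In class II-low cells 4 of 12 and 1 of 19 were 2-fold lower and none higher, beside 4.95% and 2.65% of 5255 genes.

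**Figure D3:**
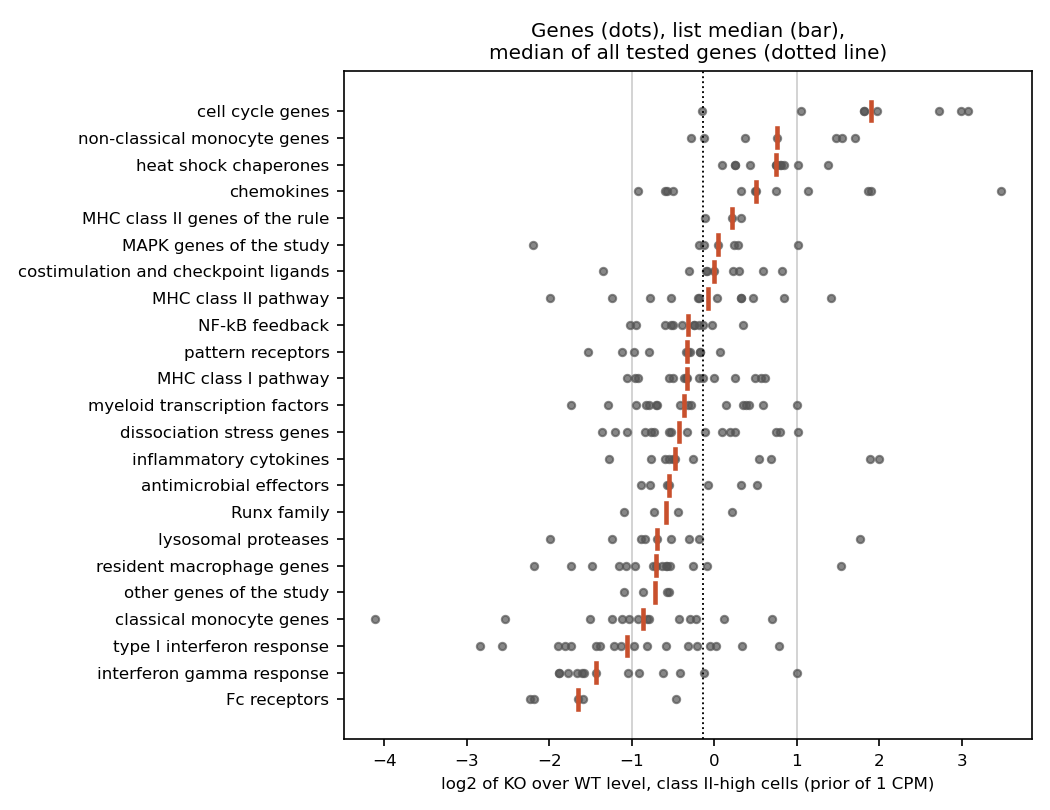
Log2 ratio of KO over WT levels in class II-high cells for the tested genes of each list (dots, prior of 1 CPM), with the list median (bar), the median of all tested genes (dotted line, -0.14) and lines at 2-fold. Fc receptors, both interferon lists and classical monocyte genes lie lowest, and cell cycle genes highest, whose median was below 0 in cells with few cDC2 UMIs.

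MHC class I genes were lower in part. B2m, the light chain, was at 4125 and 2118 CPM (-0.96, -1.03 to -0.90), and the heavy chain H2-K1 at 2149.9 and 1136 CPM (-0.92, -1.01 to -0.83). H2-D1 differed little, at 1606 and 1414 CPM. The chaperones of the loading complex Calr and Pdia3 were higher in KO, at 501 and 708 CPM and at 207 and 317 CPM. Of 15 tested genes 1, Nlrc5, the class I counterpart of Ciita, was at least 2-fold lower, at 26.6 and 12.3 CPM, a share near the 7.12% of all genes. Costimulatory and checkpoint ligands went both ways, with 3 of 9 intervals above 0 and 2 below, beside 15.2% and 27.0% of all genes, and a median of -0.0043. Cd86 was at 175 and 174 CPM and Cd83, the most abundant, at 539.8 and 632 CPM, and Cd80 had the highest ratio, at 50.1 and 89.7 CPM. The checkpoint ligand Vsir, 1 of the 9, was 2-fold lower in KO, beside 7.12% of all genes, at 134 and 52.1 CPM. In cells with few cDC2 UMIs none of 8 tested ligands passed 2-fold, and the median was 0.27.

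Cytokines and chemokines did not move as 1 group. Of 11 tested cytokine genes 2 were at least 2-fold higher and 1 lower in KO, beside 3.44% and 7.12% of all genes, with a median of -0.48, which was 0.28 in cells with few cDC2 UMIs. In those cells 4 of 10 tested genes were at least 2-fold higher and none lower, beside 1.92% and 7.56% of all genes. Il1b, the most abundant cytokine, was at 3005 and 2056 CPM (-0.55, -0.62 to -0.48) over all cells, and at 3374 and 3531 CPM in cells with few cDC2 UMIs. Tnf was at 345 and 504 CPM. Il1a had the highest ratio of the cytokine genes, at 53.2 and 216 CPM (2.02, 1.67 to 2.39). Osm, oncostatin M, was the lowest, at 159.7 and 65.2 CPM. Among 12 tested chemokine genes 4 were at least 2-fold higher in KO, beside the same 3.44%, and none lower, with a median of 0.51. In cells with few cDC2 UMIs 6 of 11 were 2-fold higher, beside 1.92% of all genes, and none lower, with a median of 1.07. In class II-low cells 6 of 13 were higher, beside 2.65%, and none lower, with a median of 0.94. Over all class II-high cells Cxcl2, a neutrophil attractant and the most abundant, was at 4207 and 5944 CPM, and 1021 of the 7753 KO UMIs came from 1 cell. Ccl4 was at 233 and 872 CPM (1.90, 1.73 to 2.07), and at 294 and 1964 CPM in cells with few cDC2 UMIs. Ccl7 had 8 WT and 85 KO UMIs, of which 60 came from 1 cell. Ccl9 had the lowest ratio, at 427 and 225 CPM, but its log2 ratio was 0.038 when the rule was applied to thinned cells.

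Genes of non-classical monocytes, the patrolling blood subset, were higher in KO in the full set. Of 7 tested genes 3 were at least 2-fold higher, beside 3.44% of all genes, and none lower, with a median of 0.76, which was -0.059 with a class II limit of 2% and -0.12 when the rule was applied to thinned cells. In cells with few cDC2 UMIs 2 of 5 were higher, beside 1.92%, with a median of 0.67, and in class II-low cells 5 of 9, beside 2.65%, with a median of 1.51. Spn, which encodes CD43, had the highest ratio, at 8.67 and 30.7 CPM (1.82, 0.91 to 2.82), and was at 10.2 and 9.53 CPM in cells with few cDC2 UMIs. Itgal, an integrin chain, had the lowest, at 185 and 153 CPM (-0.28, -0.54 to -0.02).

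Among 16 tested myeloid transcription factors 2 were at least 2-fold lower and 1 higher in KO, with a median of -0.37. The shares over all genes were 7.12% and 3.44%, beside which the counts of the following lists also stand. Cebpb, a factor of inflammatory gene expression, was among the lower ones, at 1371 and 562 CPM (-1.29, -1.41 to -1.16), and the higher one was Irf8. Klf6, the most abundant, was at 1522 and 1252 CPM. Of the Runx family, Runx1 was at 345 and 255 CPM and the common partner Cbfb at 60.0 and 69.8 CPM (0.22, -0.21 to 0.64). Of 10 tested pattern receptors and their adaptors 2 were 2-fold lower: Tlr2, which binds bacterial lipopeptides, was at 591 and 203 CPM (-1.54, -1.74 to -1.34), and Myd88 at 109 and 49.8 CPM. Tlr13 had the highest ratio of that list, at 40.9 and 42.9 CPM (0.07, -0.47 to 0.61). In cells with few cDC2 UMIs none of 8 tested pattern receptors passed 2-fold, and the median was -0.021. In class II-low cells 1 of 10 was 2-fold higher, beside 2.65% of all genes, and none lower, with a median of 0.47. Of 12 NF-kB feedback genes 1, Bcl3, was 2-fold lower, at 215 and 105.8 CPM, but in cells with few cDC2 UMIs none of the 12 passed 2-fold. Nfkbia, the inhibitor that NF-kB itself induces and the most abundant, was at 2721 and 2077 CPM and Relb at 62.5 and 79.7 CPM. Of 9 lysosomal proteases and inhibitors tested, 1 (Cst3) was 2-fold higher and 2 (Ctss and Lgmn) were lower in KO, with a median of -0.70. The others differed less, with Ctsb at 1116 and 688 CPM and Ctsz at 847 and 747 CPM. None of 7 antimicrobial genes passed 2-fold over all class II-high cells. In those with few cDC2 UMIs 2 of 7 were 2-fold higher in KO, beside 1.92% of all genes, and in class II-low cells 1 of 7, beside 2.65%. The oxidase subunit Cybb was at 1229 and 826 CPM and the antiprotease Slpi at 89.8 and 129.6 CPM.

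Genes that the study followed gave the following values, and a list that the study chose on these samples is not independent evidence of its direction. Runx3, a Runt-family transcription factor, was at 334 and 156 CPM (-1.10, -1.34 to -0.87). Zfp36, which encodes the mRNA decay factor tristetraprolin, was at 1702 and 934 CPM (-0.87, -0.96 to -0.77), and Ccl5 at 178 and 119.6 CPM (-0.57, -0.86 to -0.28). In cells with few cDC2 UMIs Runx3 was at 329 and 189 CPM and Zfp36 at 1897 and 1312 CPM, whereas Ccl5 was at 227 and 259 CPM. At equal depth Runx3 was found in 44.7% of WT class II-high cells (37.8 to 51.7) and 26.4% of KO cells (17.7 to 36.7), and in 22.9% and 17.6% of class II-low cells. In B-lineage cells the shares were 11.6% and 11.8%, and in T cells, some of which express the gene themselves, 36.3% and 29.0%. Of the 7 MAPK genes 1 was 2-fold higher and 1 lower. Nr4a1, an immediate-early nuclear receptor, was at 294 and 269 CPM (-0.13, -0.33 to 0.07), Jund at 855 and 882 CPM, Atf4 at 646 and 567 CPM, Flna at 209 and 255 CPM and Pak1 at 96.0 and 113.5 CPM. Daxx was the lowest, at 56.3 and 11.5 CPM (-2.29, -3.19 to -1.5), and Hspa1a the highest, at 97.2 and 198 CPM (1.03, 0.73 to 1.32).

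**Figure D4:**
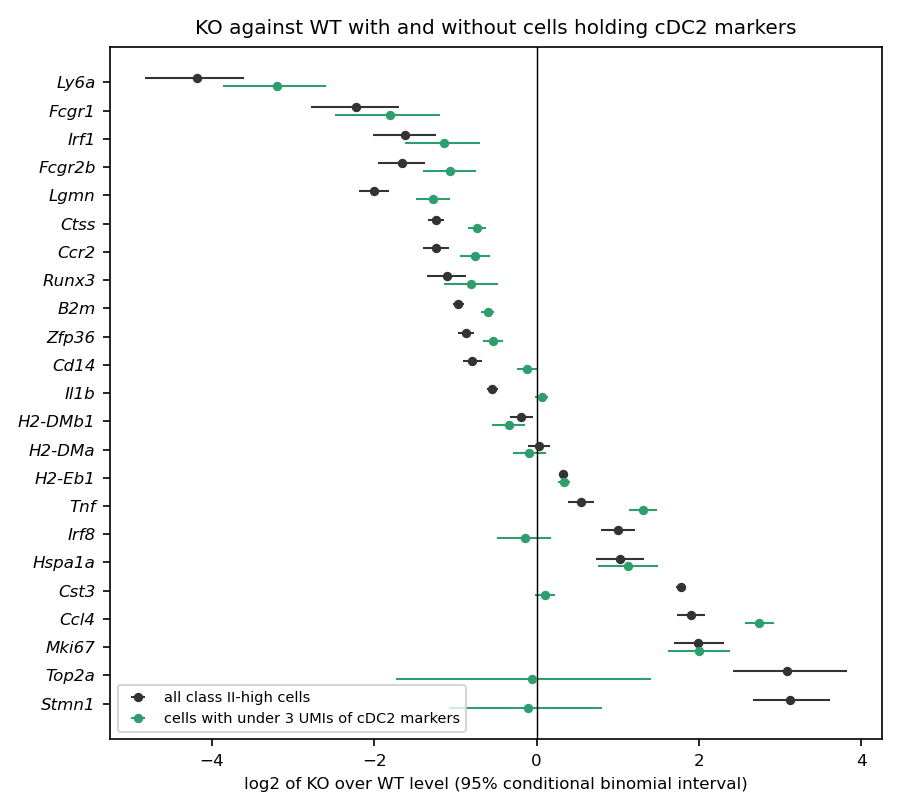
Log2 ratio of KO over WT levels for genes named in the text, over all 214 WT and 92 KO class II-high cells and over the 177 WT and 51 KO cells with under 3 UMIs of the cDC2 markers; lines are 95% conditional binomial intervals. The ratios of Ly6a, Fcgr1, Lgmn and Runx3 stay below 0 in both, whereas those of Cst3, Irf8, Top2a and Stmn1 have intervals that include 0 in the second.

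Heat shock chaperones were higher in KO, with 10 of 11 intervals above 0 beside 15.2% of all tested genes, 2 genes at least 2-fold higher and a median of 0.75. Hspa8, the most abundant, differed least, at 1839.8 and 1959 CPM, and Hsph1 had the highest ratio, at 17.3 and 46.8 CPM (1.43, 0.76 to 2.13). In class II-low cells 4 of 11 intervals were above 0, beside 12.7% of all genes, and Hspa1a was at 131 and 450.5 CPM. Among genes that respond to cell dissociation 3 of 16 were 2-fold lower in KO and 1 was higher, beside 7.12% and 3.44% of all genes. In cells with few cDC2 UMIs 1 of 16 was lower and 2 were higher, beside 7.56% and 1.92%. The counts in class II-low cells were also 1 lower and 2 higher, beside 4.95% and 2.65%. Junb was at 3177 and 1524 CPM and Ier3 at 1146 and 446 CPM.

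Cell cycle genes were higher in the KO cells when all cells were summed. Of 8 tested genes 7 were at least 2-fold higher, beside 3.44% of all genes, and the median was 1.90, but -0.35 in cells with few cDC2 UMIs and -0.56 when the rule was applied to thinned cells. Mki67, a marker of proliferating cells, was at 73.0 and 291 CPM (1.99, 1.69 to 2.30). At equal depth it was found in 11.1% of WT (7.14 to 16.1) and 30.8% of KO class II-high cells (21.5 to 41.3), and in 6.42% and 7.60% of class II-low cells. In T cells the share was 13.4% in WT and 0 of 62 cells in KO (upper limit 5.78%). It was at 77.6 and 311 CPM in cells with few cDC2 UMIs. Top2a, the topoisomerase of dividing cells, was at 13 and 110.4 CPM over all cells and at 11.9 and 11.4 CPM in those, and Stmn1 was at 27.2 and 237 CPM over all and at 30.7 and 28.6 CPM in those. The UMIs were unevenly spread: 5 KO cells held 43.6% of the list's KO UMIs, against 8.56% in 5 WT cells. Hmgb2, the most abundant gene of the list, was at 350.4 and 728 CPM, and Pcna was even, at 277 and 249.9 CPM. The log2 ratio of Hmgb2 was -0.52 in cells with few cDC2 UMIs and -1.03 when the rule was applied to thinned cells.

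The 10 genes with the highest KO to WT ratio were Pclaf, Hist1h4d, Terf2ip, Racgap1, Stmn1, Top2a, Smc2, Il4i1, Birc5 and Dut. Pclaf, a partner of the replication clamp, had 7 UMIs in WT and 192 in KO (5.09, 4.02 to 6.42), in 14 KO cells. In the cells with few cDC2 UMIs it had 4 in WT and 0 in KO. There the log2 ratios of 6 of these genes (Pclaf, Hist1h4d, Stmn1, Top2a, Birc5 and Dut) were below 0, most on few UMIs, and those of Terf2ip, Racgap1, Smc2 and Il4i1 above 0. Terf2ip, a telomere protein, had 11 and 109 UMIs, 91 of the latter from 1 cell. Il4i1, a secreted amino acid oxidase, had 12 and 73 UMIs.

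The 10 genes with the lowest ratio were Saa3, Ly6a, Gm36161, Serpinb6b, Cfb, Mt2, Ifit3, Spon1, Ifit2 and Hp. Saa3, an acute-phase amyloid, had 115 UMIs in 19 WT cells and 2 UMIs in KO (-5.54, -8.60 to -3.65). In class II-low cells it had 23 UMIs in WT and 122 in KO, a log2 ratio of 0.66. Cfb, complement factor B, was at 86.7 and 9.97 CPM (-3.12, -4.07 to -2.30), and Mt2, a metallothionein, at 31.0 and 3.07 CPM (-3.34, -5.27 to -1.89). The matrix protein gene Spon1 was at 38.4 and 4.60 CPM. Serpinb6b had 71 UMIs in 10 WT cells, 25 of them in 1 cell, and 5 in KO. In cells with few cDC2 UMIs the ratios of these genes stayed below 0 apart from that of Serpinb6b, which had 1 UMI in each library.

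Class II-high cells were compared with class II-low cells of the same library. The rule fixed this contrast, so the values are a description. Of 4846 genes with at least 50 UMIs in each library, 1.69% were at least 2-fold higher and 1.20% at least 2-fold lower in both. Of the class II genes outside the rule, H2-Eb1 was at 4359 against 281 CPM in WT and at 5467 against 72.1 CPM in KO. Of 11 tested genes of the class II pathway list 6 were 2-fold higher in both libraries. The highest genes by the ratio nearer to 0 were Itgae, H2-Oa, H2-Eb1, Dnase1l3, Plet1, Anpep, Serpinb9, H2-DMb2, Actn1 and Mmp12, with log2 ratios from 2.68 to 4.69. Itgae had 102 UMIs in WT class II-high and 1 UMI in class II-low cells, a log2 ratio with an interval of 2.90 to 10.7. Plet1, one of the cDC2 markers, was at 76.8 and 84.3 CPM in class II-high cells. Mmp12, the macrophage elastase, was at 43.3 and 126 CPM in class II-high cells, but its log2 ratio was -1.10 when the rule was applied to thinned cells.

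Among the lowest genes in class II-high against class II-low cells were Mgst1, Mmp8, Mt2, Fry, Vcan, Ace, Fgd4, Csf3 and Hp, with ratios nearer to 0 between -2.82 and -1.60. Vcan, versican, a matrix gene of fresh monocytes, was at 19.8 against 89.1 CPM in WT. Ace, which marks non-classical monocytes, was at 13 against 54.9 CPM in WT. Runx3 was at 334 CPM in WT class II-high against 147 CPM in class II-low cells, and at 156 against 93.7 CPM in KO. In WT 4 of 14 classical monocyte genes were 2-fold lower in class II-high cells, beside 1.92% of all genes, and in KO 11 of 14, beside 8.98%.

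The levels also varied along the class II share within the class II-high cells. They were split into tertiles by class II share, 71, 71 and 72 cells in WT and 31, 30 and 31 in KO, and the values describe cells that the rule had sorted on the same RNA. Ly6c2 went from 1405 CPM in the lowest to 809 and 775 CPM in WT, and from 443 to 93.2 and 21.7 CPM in KO. Ccr2 went from 1029.8 to 694 and 714 CPM in WT and from 467 to 301 and 275 CPM in KO. Ccr7 was at 90.9, 413 and 378 CPM in WT and at 44.3, 373 and 742 CPM in KO. Cells with at least 3 cDC2 UMIs numbered 4, 12 and 21 in the WT tertiles and 6, 19 and 16 in KO. Ly6a did not follow the class II share, at 356, 303 and 383 CPM in WT and 23.6, 25.8 and 8.68 CPM in KO, and Runx3 was at 319, 321 and 358 CPM in WT.

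**Figure D5:**
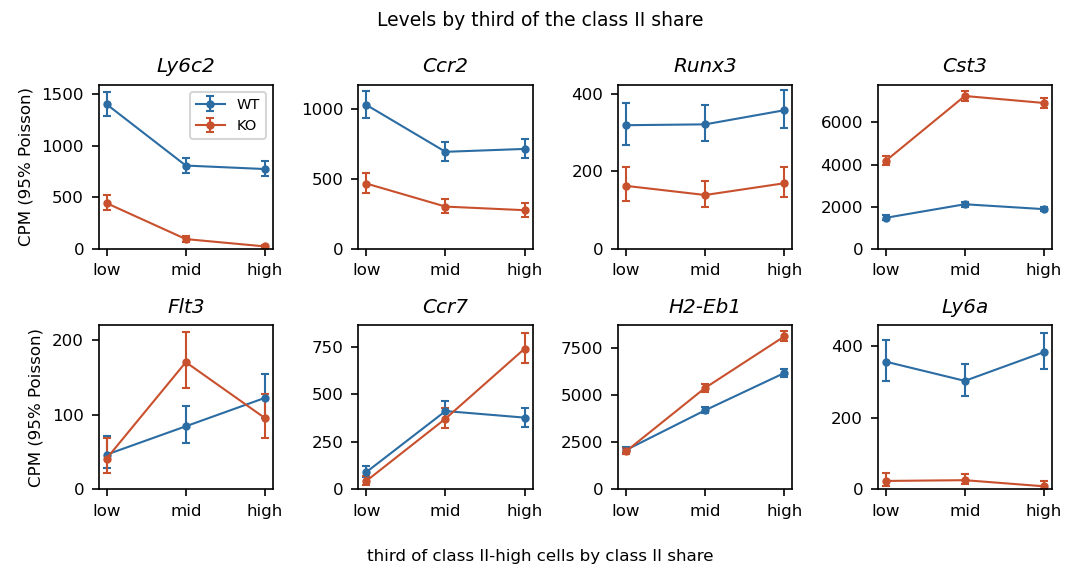
Levels of 8 genes in CPM with 95% Poisson intervals in the class II-high cells of each library, split into equal groups by class II share from low to high. Ly6c2 and Ccr2 are highest where the class II share is lowest, H2-Eb1 is higher in each higher group, Ccr7 is lowest in the lowest group, and Ly6a differs between the libraries at every level.

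Levels were also compared with those of neighbouring cells. C1q-rich cells, which met the rule except for C1q RNA of at least 0.2%, numbered 82 in WT and 14 in KO. Cells that met it except for the limit on Cd209a, Mgl2 and Clec10a numbered 49 and 79. In WT, Apoe was at 2263 CPM in class II-high cells, 4727 CPM in C1q-rich cells and 449 CPM in cells rich in the cDC2 genes, and Flt3 was at 88.5, 10.3 and 132 CPM in the same order. In KO, Apoe was at 813, 5058 and 188 CPM. Flt3 was at 110 CPM in KO class II-high cells and 132 CPM in those rich in the cDC2 genes, with 0 UMIs in C1q-rich cells. In the first order, Cst3 was at 1854, 1117 and 3200 CPM in WT and at 6338, 1337 and 4742 CPM in KO. Ccr2 was at 791, 758 and 516 CPM in WT and at 335, 499 and 183 CPM in KO. Il22ra2, the soluble IL-22 binding protein, had 157 UMIs in WT and 220 UMIs in KO class II-high cells but lay in 9 and 8 cells, and it was at 0 in class II-low and C1q-rich cells of both libraries.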

How the data were processed

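Per the labels and the study's methods, colon lamina propria cells were enriched on Percoll, sorted as live cd11b+ cells and sequenced with the 10x Genomics 3′ version 3 kit. The deposited matrices hold raw UMI counts per gene and barcode, and the file headers give the 10x software version 3.0.2. The submitters' processing notes name Seurat 4 and mm10, and the aligner settings are not given in the sources used here. The authors applied no normalization to these counts. Coordinates and promoters came from GRCm38.

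Cells with 200 to 6000 genes and at most 15% mitochondrial UMIs were kept. No doublet caller was run, and leaving out the deepest 5% of members served as an alternative. UMIs were summed over the cells of each library and expressed as CPM. Levels carry exact Poisson intervals, shares Clopper-Pearson intervals and log2 ratios exact conditional binomial intervals, all at 95% and all for counting error only. Calls of 2-fold and list medians use a prior of 1 CPM and at least 50 UMIs. The calculations used Python 3.11.15 with numpy, scipy and pandas and were tested on simulated data.

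Of each of 23 lists the text names the most abundant, highest and lowest genes and those the study measured. It also names the 10 highest and 10 lowest genes of each comparison found in at least 10 cells, without mitochondrial, immunoglobulin and rule genes. Members and lists were chosen with earlier results of these data known. Genes named in neither way (among them Ccr7, Itgae, Csf1r, Irf1, Il22ra2 and the cDC2 markers) were chosen after their values were seen. Ifi30 and Clec7a of the lists had no feature of that symbol. Of the alternatives, 14 were planned and 3 were added after the data were seen, as were the shares in lymphocytes. Some genes that these rules select are not reported here.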

Additional observations from a re-analysis of the deposited data

Results flagged for a closer look

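Of 88 genes named above that could be compared in both groups of cells and were not used by the rule, 15 had KO to WT ratios in opposite directions in class II-high and class II-low cells, both intervals leaving out 0. Over all 4934 genes tested in both groups 155 did (3.14%). With 1 library per genotype these differences were not tested, and the genes had been named with their values known. Saa3 had a log2 ratio of -5.54 in class II-high and 0.66 in class II-low cells, a difference of -6.20, with 2 UMIs in the KO class II-high cells. Lower in KO among class II-high cells and higher among class II-low cells were also Hp, with a difference of -2.81 (-2.60 against 0.21), Cebpb with -1.41 (-1.29 against 0.12), Ccl9 with -1.22 (-0.92 against 0.30), Itgal with -1.17 (-0.28 against 0.89), Cd14 with -1.10 (-0.79 against 0.31) and Fcer1g with -1.05 (-0.46 against 0.59). Smaller differences of that direction were those of Isg15 (-0.93), Cybb (-0.90), Csf1r (-0.87), Ctsb (-0.86) and H2-D1 (-0.39). Higher in KO among class II-high and lower among class II-low cells were Irf8, with a difference of 1.75 (1.00 against -0.74), H2-Eb1 with 2.29 (0.33 against -1.96) and Ccr7 with 2.06 (0.41 against -1.65). The rule divided the cells by class II RNA, so the H2-Eb1 value is a description of that division. With the rule on thinned cells the class II-high ratios of Ccl9 (0.038), Csf1r (0.25), Fcer1g (0.036) and Itgal (0.37) were above 0. In class II-high cells with under 3 UMIs of the cDC2 markers the ratios of Csf1r, Isg15, Itgal, Fcer1g and Cybb were above 0, at 0.17, 0.26, 0.23, 0.022 and 0.046, that of Irf8 was -0.14, and Cd14 was at 1487 and 1371 CPM.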

How the results depend on the processing

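The log2 ratio of the class II-high share was -1.42 to -1.04 over the other filters and limits listed in advance, and of 148 values of the 11 main results under such settings 123 stayed close to the reported one. Under settings chosen after seeing the data 7 of 22 values of these results stayed close, and not every such setting was run on them. Over lists, 319 of 368 values stayed close and 10 reversed in 5 lists, and over 118 named genes 1620 of 2006 stayed close and 50 reversed in 29 genes. The causes were not tested. Without Plac8 in the rule the ratio of the share was -1.76, and without cells holding at least 3 cDC2 UMIs -1.75. The cells left out under those settings overlapped. The 7 class II genes outside the rule (0.26) gave 0.21 as a mean over cells, 0.32 without the deepest 5% of cells, 0.40 relative to the median gene, 0.030 with the rule on thinned cells, 0.025 without Plac8 and 0.22 without the cDC2-marker cells. The counts of genes 2-fold higher and lower in KO (189 and 391) were 1219 and 1546 with a minimum of 1 UMI, 389 and 663 with 20 UMIs, 118 and 234 with a prior of 10 CPM, and 26 and 118 on thinned cells. The higher count was 92 without Plac8 and 77 without cDC2-marker cells. Relative to the median gene, at -0.14, the split was 262 and 289. For class II-high against class II-low cells the counts (82 and 58) were 444 and 233 with 1 UMI, 146 and 94 with 20 UMIs, 10 and 12 on thinned cells, 26 and 21 without Plac8, and 31 and 26 without cDC2-marker cells. The lower count was 35 with a prior of 10 CPM, and the higher count 51 without the deepest 5%. The classical monocyte median (-0.87) was -1.16 with a class II limit of 2%, -0.45 as a mean over cells, -0.40 thinned, -0.46 without Plac8 and -0.47 without cDC2-marker cells. The interferon gamma median (-1.43) was -0.63 thinned, -0.66 without Plac8 and -0.79 without cDC2-marker cells, the class II pathway median -0.60 thinned, and the heat shock median 0.43 without cDC2-marker cells.

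On thinned cells the direction turned for the lists of non-classical monocytes (-0.12), class II genes of the rule (-0.071) and cell cycle (-0.56), and for Pclaf (-1.99), Hist1h4d (-3.31), Dut (-3.31), Csf1r (0.25), Ccl9 (0.038), Cd83 (-0.17), Ctsz (0.14), Fcer1g (0.036), Hmgb2 (-1.03), Hspa8 (-0.13), Itgal (0.37), Klf6 (0.0020), Mmp12 (-1.10) and Spn (-0.13). The non-classical list also turned with the 2% limit (-0.059), as did Slpi (-0.16), and Il10 (0.016), Itgal (0.049) and Hspa8 (-0.00023) as a mean over cells. Without Plac8 the class II genes of the rule (-0.078), inflammatory cytokines (0.087), Csf1r (0.059), Il10 (0.13), Cd83 (-0.044), Ctsz (0.016), Dpp4 (-0.13), Il22ra2 (-1.54), Isg15 (0.22), Itgal (0.30) and Klf6 (0.018) turned. Without cDC2-marker cells the lists that turned were class II genes of the rule (-0.010), cell cycle (-0.35), inflammatory cytokines (0.28) and NF-kB feedback (0.043). The genes were Pclaf (-2.14), Hist1h4d (-0.29), Stmn1 (-0.10), Top2a (-0.057), Birc5 (-2.40), Dut (-2.80), Serpinb6b (0.65), Il1b (0.066), Ccl5 (0.19), Csf1r (0.17), Irf8 (-0.14), H2-DMb2 (-0.69), Il10 (0.35), Cd83 (-0.099), Ctsz (0.10), Cybb (0.046), Dpp4 (-0.058), Fcer1g (0.022), Hmgb2 (-0.52), Isg15 (0.26), Itgal (0.23), Serpinb9 (-0.30) and Spn (-0.093). No paired analysis was possible because each genotype had 1 library, so the groups shared 1 replicate number. Depth limits genes with few UMIs, and intervals leave out the spread between mice.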
